A study of Mus musculus with 4 samples.

Results

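Metabotropic glutamate receptors are the slow, G protein-coupled receptors for glutamate, and 6 of their genes were followed through the development of the mouse pontine nucleus: Grm2, Grm3, Grm4, Grm5, Grm7 and Grm8. They were chosen by name, as the genes whose symbol stood alone for a probe set in the platform's gene table. Each had 1 such probe set, so the 6 genes rest on 6 probe sets, among 19938 genes named in this way. The other receptors of the family were not analysed here.

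The pontine nucleus lies in the ventral pons, and its glutamatergic neurons send mossy fibres from there to the cerebellum. It was dissected from ICR mice at embryonic day 17.5 (E17.5) and at postnatal days 1, 5 and 14 (P1, P5 and P14), and the labels name no allele or treatment. Material was pooled from 27 mice at E17.5, 16 at P1, 13 at P5 and 12 at P14, and each pool went onto 1 Affymetrix whole-transcript array. With 1 array for each age, no test, p-value or error between pools could be had, and every difference below is between single arrays.

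Metabotropic receptors form dimers that bind glutamate outside the membrane and signal slowly through G proteins, in contrast to the ion channels opened by glutamate. They fall into groups I, II and III. The group I receptor mGlu5 (Grm5) couples to Gq proteins, which activate phospholipase C and release calcium from stores, and it sits mostly in postsynaptic membranes. The group II receptors mGlu2 (Grm2) and mGlu3 (Grm3) and the group III receptors mGlu4 (Grm4), mGlu7 (Grm7) and mGlu8 (Grm8) couple to Gi/o proteins, which restrain adenylyl cyclase, and many of them damp transmitter release from axon terminals. Grm3 and Grm5 are also known from astrocytes.

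The promoters of the genes are shown because the 6 receptors did not move together across the arrays, and they give the sequence at the starts of genes whose courses are set side by side. RefSeq promoter sequences (build GRCm38.p6) were listed for 4 of the 6 genes. The 250 bases before the most upstream listed start are printed for each, 5′ to 3′ on the gene's own strand, with capitals marking the GC box GGGCGG on either strand. Grm2 lies on the minus strand at chr9:106656110-106656359, Grm3 on the minus strand at chr5:9725353-9725602, Grm7 on the plus strand at chr6:110645262-110645511 and Grm8 on the minus strand at chr6:28135147-28135396.
Grm2: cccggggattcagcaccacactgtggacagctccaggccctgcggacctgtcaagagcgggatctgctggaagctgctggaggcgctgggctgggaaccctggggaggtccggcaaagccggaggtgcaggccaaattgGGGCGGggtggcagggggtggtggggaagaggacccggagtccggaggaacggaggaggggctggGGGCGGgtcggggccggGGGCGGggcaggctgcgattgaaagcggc
Grm3: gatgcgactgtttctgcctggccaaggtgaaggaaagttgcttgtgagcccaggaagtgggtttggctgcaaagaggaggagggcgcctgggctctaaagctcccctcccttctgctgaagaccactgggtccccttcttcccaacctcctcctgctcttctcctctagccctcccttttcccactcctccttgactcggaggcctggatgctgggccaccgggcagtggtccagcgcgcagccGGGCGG
Grm7: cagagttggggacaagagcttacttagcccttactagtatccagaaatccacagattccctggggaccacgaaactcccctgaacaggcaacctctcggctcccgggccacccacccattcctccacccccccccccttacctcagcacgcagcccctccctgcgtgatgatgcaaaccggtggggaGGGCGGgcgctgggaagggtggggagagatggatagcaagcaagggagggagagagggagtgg
Grm8: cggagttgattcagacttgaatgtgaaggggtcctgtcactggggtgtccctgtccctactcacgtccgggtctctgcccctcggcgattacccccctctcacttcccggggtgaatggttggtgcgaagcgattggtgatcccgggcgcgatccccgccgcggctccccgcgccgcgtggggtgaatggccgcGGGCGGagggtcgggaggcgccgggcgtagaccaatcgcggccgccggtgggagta
The Grm2 window held 3 GC boxes, and those of Grm3, Grm7 and Grm8 held 1 each. Of 32851 windows of this length in the table, 32.7% held at least 1. None of the 4 windows held the E-box CANNTG, which 66.2% of all windows held, or the TATA sequence TATAAA on either strand, which 12.4% held. GC content was 71.2% for Grm2, 62.4% for Grm3, 62.0% for Grm7 and 68.4% for Grm8, against a median of 52.4% over all windows.

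The values are the authors' normalised log2 signals, on which a difference of 1 is 2-fold. Levels are compared between arrays for the same gene and never between genes, since probe sets differ in brightness. For counts over genes, a highest level of at least 8.41, the median over all probe sets with a single symbol, was required; 10901 genes and all 6 receptors passed and are called kept genes. Grm2, Grm3, Grm5 and Grm7 lay above 8.41 on all 4 arrays. Grm8 lay under it at E17.5, and Grm4 lay under it at E17.5 and P1, so Grm4 and Grm8 were kept through their higher arrays, and the size of a difference from one of those low values is inexact. The standard deviation (SD) of a difference that comes from 1 probe set, taken over 645 genes with several probe sets, ran from 0.10 for P14 against P1 to 0.18 for P5 against E17.5. That yardstick covers the disagreement between probe sets of the same gene, without the variation among mice or among pools. It was borrowed from other genes, since each receptor has 1 probe set.

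Likeness between arrays was out of step with the labelled ages. Across the kept genes, Pearson's r was 0.97 for P1 with E17.5 and 0.97 for P14 with P1, 0.91 for P14 with E17.5 and 0.89 for P14 with P5, and 0.81 for P5 with P1 and 0.75 for P5 with E17.5 (genes are not independent replicates). Among 2120 genes with a 2-fold span over the 4 arrays, the P14 array held a value intermediate to P1 and P5 in 86.6%, as it did in 63.0% of all 10901 kept genes and in 4 of the 6 receptors (Grm2, Grm3, Grm4 and Grm8). Myelin markers were lower on the array labelled P14 than on that labelled P5 by a summed log2 difference of -2.81, and young neuron markers were higher by 1.01. Whether these 2 labels were exchanged was not tested. The deposited labels are used throughout; if they were exchanged, the low level of Grm3 and the high levels of Grm4 and Grm8 given below for P5 would belong to the later age. Of 8 pontine neuron markers, 7 lay at or above 8.41 on every array; the other, the vesicular glutamate transporter gene Slc17a7, stood at 8.16, 9.38, 12.90 and 11.36 at E17.5, P1, P5 and P14. Barhl1, a transcription factor of rhombic lip derived neurons, stood at 12.23, 11.79, 10.83 and 11.61.

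The 6 receptors followed different courses. Grm3 was lowest on the array labelled P5, Grm4 and Grm8 were highest on it, Grm7 was higher at P1 than at E17.5, Grm5 varied by less than 2-fold and Grm2 varied least. A span of at least 2-fold over the 4 arrays was found in 4 of the 6 genes (Grm3, Grm4, Grm7 and Grm8), and in 19.4% of all kept genes. Without the array labelled P5, 2 of the 6 (Grm7 and Grm8) had such a span, against 5.99% of kept genes; without the array labelled P14, the same 4 did, against 18.6%. Of these 4 receptors, 2 (Grm4 and Grm8) peaked on the array labelled P5, as 59.8% of the 2120 genes did, and Grm3 peaked at P1 (7.41%) and Grm7 on the array labelled P14 (8.21%). None peaked at E17.5 (24.6%). The lowest level of Grm7 and Grm8 was at E17.5 (50.5% of the 2120 genes), that of Grm4 at P1 (14.7%), that of Grm3 on the array labelled P5 (31.8%) and that of none on the array labelled P14 (2.97%).

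**Figure D1:**
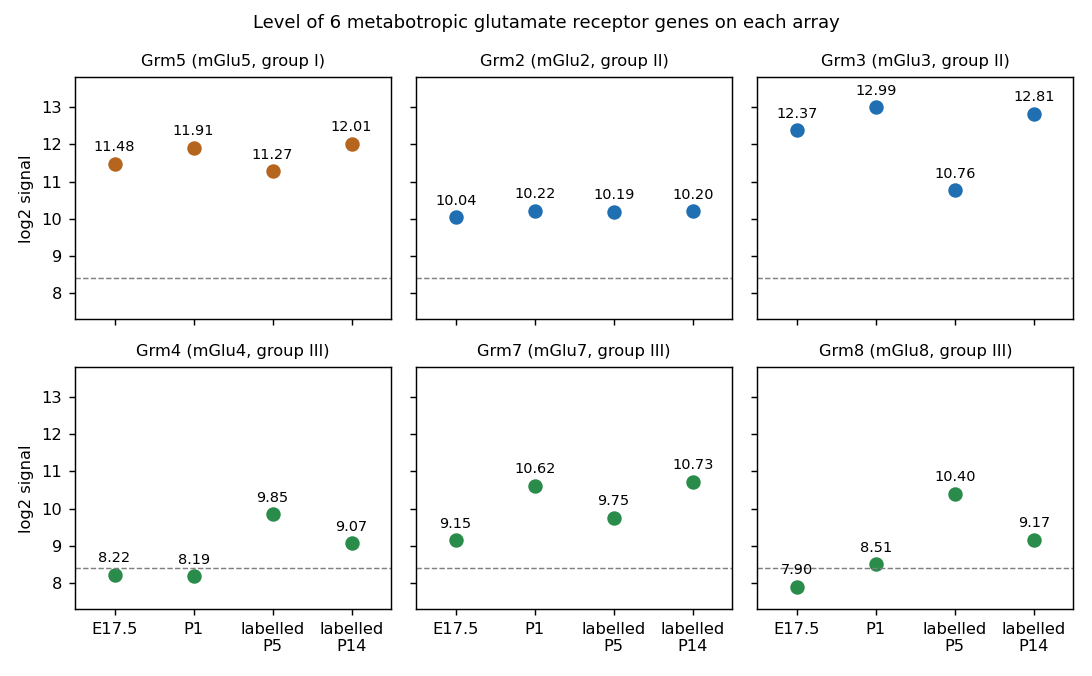
Log2 signal of each receptor gene (vertical axis) on the arrays of E17.5, P1, P5 and P14 (horizontal axis); each point is 1 array of pooled RNA and the dashed line is the level filter of 8.41. Grm3 drops to 10.76 on the array labelled P5, where Grm4 (9.85) and Grm8 (10.40) peak; heights are not comparable between panels.

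Grm5, the group I receptor, had a log2 signal of 11.48 at E17.5 and 11.91 at P1, then 11.27 on the array labelled P5, and 12.01 on that labelled P14. The P14 and P1 arrays were high, and the E17.5 and P5 arrays were low. P1 was above E17.5 by 0.43 (1.35-fold), and P5 was below P1 with a difference of -0.64. P14 was above P5 by 0.74 (1.67-fold), the whole span of the gene. In the order of the levels, P5 and E17.5 differed by 0.21 and P1 and P14 by 0.10, both less than 2 SD of a probe set difference, while the gap of 0.43 between E17.5 and P1 was larger than 2 SD (0.24).

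Grm2, a group II receptor known as a presynaptic autoreceptor, had a log2 signal of 10.04 at E17.5 and 10.22 at P1, then 10.19 on the array labelled P5, and 10.20 on that labelled P14. All 4 values lay within a span of 0.18. No neighbouring levels of Grm2 differed by more than 2 SD of a probe set difference. Where 12.9% of kept genes lay at least 2-fold apart between P5 and P1, Grm2 differed by -0.03.

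Grm3, the other group II receptor, had a log2 signal of 12.37 at E17.5 and 12.99 at P1, then 10.76 on the array labelled P5, and 12.81 on that labelled P14. The array labelled P5 was low and the other 3 were high. The level on the array labelled P5 was 4.69-fold lower than at P1 (a difference of -2.23), 3.05-fold lower than at E17.5 (-1.61), and the P14 level was 4.14-fold above it (2.05). Among the 10901 kept genes, Grm3 ranked 35 from the lowest in its difference between P5 and P1. P1 was 1.54-fold above E17.5 (0.62), more than 2 SD of a probe set difference (0.24), and P14 differed from P1 by -0.18, less than 2 SD (0.21). Apart from the array labelled P5, the span of Grm3 was 0.62.

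Grm4, a group III receptor best known from the parallel fibre terminals of the cerebellum, had a log2 signal of 8.22 at E17.5 and 8.19 at P1, then 9.85 on the array labelled P5, and 9.07 on that labelled P14. The first 2 arrays were low, P14 was in between and P5 was high. P5 was above P1 by 1.66 and P14 above P1 by 0.88, sizes that are inexact because the P1 level lay under 8.41. P14 was below P5 with a difference of -0.78, from 2 levels above 8.41. P1 and E17.5 differed by -0.03, less than 2 SD, while the other gaps in the order, 0.85 and 0.78, were larger than 2 SD of a probe set difference (0.27 and 0.28).

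Grm7, the group III receptor of presynaptic active zones with the lowest affinity for glutamate, had a log2 signal of 9.15 at E17.5 and 10.62 at P1, then 9.75 on the array labelled P5, and 10.73 on that labelled P14. P1 and P14 were high, P5 was lower and E17.5 was lowest. P1 was 2.77-fold above E17.5 (1.47), which ranked it 16 from the highest among the 10901 kept genes. P14 was 2.99-fold above E17.5 (1.58) and 1.97-fold above P5 (0.98). P5 was below P1 with a difference of -0.87. P14 and P1 differed by 0.11, less than 2 SD of a probe set difference.

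Grm8, also a presynaptic group III receptor, had a log2 signal of 7.90 at E17.5 and 8.51 at P1, then 10.40 on the array labelled P5, and 9.17 on that labelled P14. Each step in the order E17.5, P1, P14 and P5 was larger than 2 SD of a probe set difference, with gaps of 0.61, 0.66 and 1.23. P5 was 3.71-fold above P1 (1.89), and P14 was below P5 with a difference of -1.23. Against the E17.5 level, which lay under 8.41, the difference was 2.50 for P5 and 1.27 for P14, both inexact in size.

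**Figure D2:**
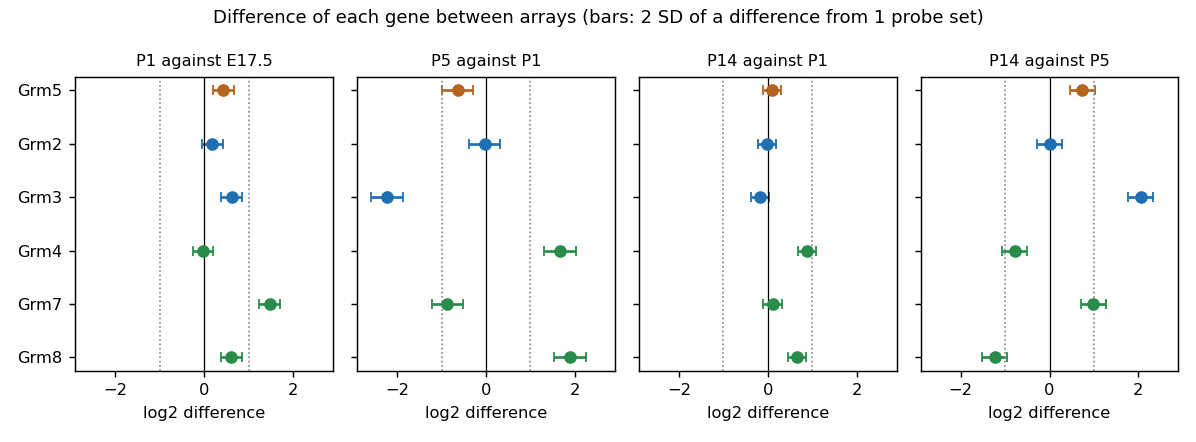
Difference on the log2 scale (horizontal axis, later minus earlier label) of each receptor gene in 4 comparisons of single arrays; bars reach 2 SD of a difference from 1 probe set to each side and dotted lines mark 2-fold. P5 against P1 splits the genes, with Grm3 at -2.23 and Grm4 and Grm8 at 1.66 and 1.89.

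Around birth, 1 of the 6 receptors, Grm7, was at least 2-fold higher at P1 than at E17.5, and none was 2-fold lower. Among all kept genes, 0.826% were higher by this measure and 0.275% lower, 1.10% together. The difference was above 0 in 5 of the 6 receptors and -0.03 in Grm4, with a median of 0.52 against -0.06 over all kept genes. That of Grm2 (0.18) was less than 2 SD of a probe set difference. This comparison takes no value from the arrays labelled P5 and P14. Of the 10 astrocyte markers, 10 were higher at P1 than at E17.5, with a summed signal 0.95 higher on the log2 scale, and the summed signal of oligodendrocyte precursor markers was 0.83 higher (5 of 5 markers). Summed myelin markers were 0.69 higher (6 of 7 markers) and microglial markers 0.55 higher (6 of 6). Summed markers of GABAergic and glycinergic neurons were at -0.78 (0 of 6 higher), those of pontine neurons at -0.24 (1 of 8 higher) and those of young neurons at -0.18 (0 of 7 higher). Markers at or above 8.41 on every array numbered 6 of 10 for astrocytes, 4 of 5 for precursors, 2 of 7 for myelin and 2 of 6 for microglia. They numbered 0 of 6 for GABAergic and glycinergic neurons, 7 of 8 for pontine neurons and 5 of 7 for young neurons. Sums that include lower values are inexact in size. The part of these cell types in the receptor differences was not tested. In RNA from whole tissue, fewer cells of a type and less RNA in each cell cannot be told apart.

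Between P5 and P1, 3 of the 6 receptors lay at least 2-fold apart, with Grm4 and Grm8 higher on the array labelled P5 and Grm3 lower. Over all kept genes, 8.96% were higher by this measure and 3.94% lower. The receptors' median difference was -0.34, against 0.05 over all kept genes, with 2 above 0 and 4 below. Markers of several cell types moved on the same array. The summed signal of 7 young neuron markers was -1.52 relative to P1 (7 of 7 lower), that of 8 pontine neuron markers -0.28 (6 of 8 lower, with a median difference of -0.80 and Slc17a7 at 3.52), and that of 7 myelin markers 3.97 (7 of 7 higher). In log2 sums, the young neuron markers stood at 13.92 for P5 and 15.44 for P1, and the myelin markers at 15.84 for P5 and 11.87 for P1. Only 2 of the 7 myelin markers lay at or above 8.41 on every array, so the myelin difference is inexact in size. The summed difference was 1.02 for 10 astrocyte markers (8 of 10 higher), 1.51 for 5 oligodendrocyte precursor markers (5 of 5 higher) and 0.88 for 6 microglial markers (6 of 6 higher). No marker was listed at 0, since the lowest value in the table was 1.84, and no background level was given. The part of these cell types in the differences of Grm3, Grm4 and Grm8 was not tested.

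**Figure D3:**
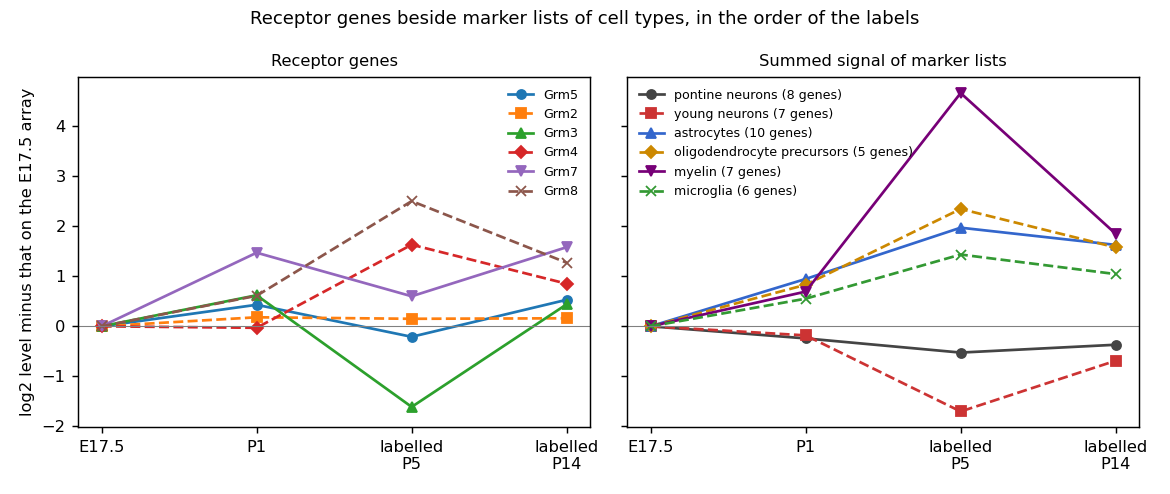
Left, log2 level of each receptor gene minus its level on the E17.5 array (vertical axis); right, the same for the summed signal of marker lists, both over the arrays in the order of their labels (horizontal axis). At P5, Grm2, Grm3, Grm5 and Grm7 and the summed pontine and young neuron markers lie below their P1 values, Grm2 barely so. Grm4, Grm8 and the summed myelin, precursor, astrocyte and microglial markers lie above theirs.

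On the array labelled P14, Grm2, Grm3, Grm5 and Grm7 lay within 2 SD of a probe set difference of their P1 levels. Grm4 (0.88, inexact in size) and Grm8 (0.66) lay further above P1. They ranked 201 and 395 from the highest among the 10901 kept genes. None of the 6 was at least 2-fold apart between P14 and P1, against 1.37% of kept genes that were higher and 0.101% that were lower, 1.47% together. Differences ran from -0.18 (Grm3) to 0.88 (Grm4), with a median of 0.11 against -0.01 over all kept genes. Among the 1406 genes at least 2-fold apart between P5 and P1, the P14 difference from P1 was a median 29.6% of the P5 difference (quartiles 17.7% and 42.2%). It was 53.0% for Grm4 and 34.9% for Grm8, and 8.07% for Grm3. Summed myelin markers were 1.15 and astrocyte markers 0.68 above P1 on this array, and young neuron markers were at -0.51; their part in the receptor values was not tested.

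Against the array labelled P5, the array labelled P14 had 2 receptors past 2-fold, Grm3 higher and Grm8 lower, where 2.16% of kept genes were higher and 4.50% lower. Grm3 ranked 24 from the highest among the 10901 kept genes here, and 6.66% were 2-fold apart in either direction. Grm7 (0.98) lay just under 2-fold and passed it with quantile normalisation. Summed myelin markers were at -2.81 and young neuron markers at 1.01 in the same comparison, and their part was not tested. Against E17.5, the array labelled P14 had Grm7 and Grm8 higher by 2-fold or more (4.55% of kept genes). No receptor was lower by as much (1.19% of kept genes, with 5.74% apart in either direction). All 6 differences were above 0, from 0.16 (Grm2) to 1.58 (Grm7), but that of Grm2 was less than 2 SD of a probe set difference. Their median was 0.69, against -0.08 over all kept genes. For P5 against E17.5, Grm4 and Grm8 passed 2-fold on the higher side (11.3% of kept genes) and Grm3 on the lower (5.50%; 16.8% in either direction). These comparisons share arrays with those above and repeat their values in part.

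By the distance between their profiles, receptors of the same pharmacological group were not always nearest to each other. With so few genes in each group, the distances cannot show whether the groups divide. The root mean square (RMS) distance was taken between profiles, each centred on its own mean over the 4 arrays. It was smallest for Grm5 with Grm2 (0.28) and for the group III pair Grm4 and Grm8 (0.32). This distance depends on the size of a gene's differences as well as their order. Grm2 and Grm5 had the smallest spans (0.18 and 0.74), so their small distance does not show a shared course. The third group III gene, Grm7, lay nearest to Grm5 (0.43) and far from Grm4 (0.93) and Grm8 (1.04). The group II pair Grm3 and Grm2 lay 0.88 apart. The largest distance among the 15 pairs was that of Grm3 and Grm8 (1.70). These distances describe 4 arrays and carry no test.

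Over 10470 kept genes with established names, the closest profile to Grm3 was that of Slit1, a repulsive axon guidance ligand, at an RMS distance of 0.09; Slit1 stood at 9.15, 9.93, 7.66 and 9.84 at E17.5, P1, P5 and P14. Stag3, a cohesin subunit known from meiosis (0.16), and Zim1, an imprinted zinc finger gene (0.18), followed. Closest to Grm4 were Entpd2, an enzyme that breaks down extracellular ATP (0.02), the secreted protease gene Adamts1 (0.05) and Cyp7b1, an oxysterol hydroxylase (0.05). Closest to Grm7 were the cationic amino acid transporter gene Slc7a3 (0.06), Rasgrp2, an activator of Rap proteins (0.13), and Adcy1, a calmodulin-stimulated adenylyl cyclase (0.16). Adcy1 is itself one of the Gi/o pathway genes described next and stood at 10.65, 11.70, 11.08 and 12.15. Closest to Grm8 were Arhgef6, an exchange factor for Rac and Cdc42 (0.04), the integrin gene Itgb5 (0.05) and Prima1, which anchors acetylcholinesterase (0.05). Entpd2, Adamts1, Cyp7b1 and Arhgef6 reached 8.41 on 1 array alone, that labelled P5, and Grm4 did on 2 arrays. Their distances rest largely on low values and are inexact. The 3 genes nearest to Grm3 lay under 8.41 on the array labelled P5, where Grm3 was lowest (Slit1 7.66, Stag3 7.38 and Zim1 8.13). Slc7a3 (7.71) and Prima1 lay under it at E17.5. The distances of these genes are inexact as well. A second search used Pearson's r over the 4 arrays and only the 2045 of these genes with a 2-fold span. With it, none of the 3 nearest genes was shared for Grm3, Grm4 or Grm8, and 2 of 3 were shared for Grm7.

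**Figure D4:**
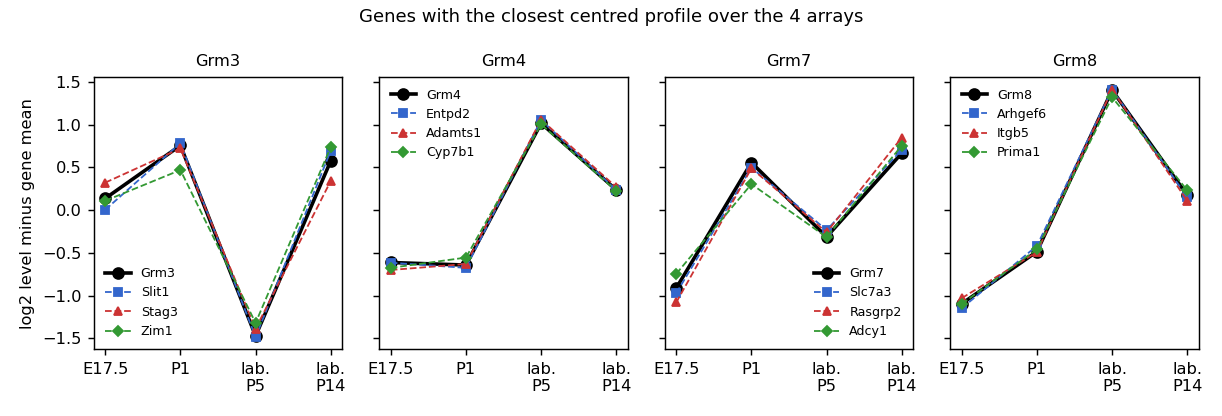
Log2 level minus the gene's own mean over the 4 arrays (vertical axis) for each receptor with a 2-fold span (black) and the 3 kept genes with the smallest RMS distance to it (dashed), by array label (horizontal axis, lab. = labelled). The RMS distance to the receptor is at most 0.18 in each panel.

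Most signalling partners downstream of the receptors lay within 2-fold, as most kept genes did, with single genes further apart. The share of all kept genes at least 2-fold apart was 1.10% between P1 and E17.5. It was 12.9% between P5 and P1, and 1.47% between P14 and P1. In the Gq cascade, used by Grm5, 11 of 17 listed genes were kept. None was 2-fold apart at P1 against E17.5, and 1 was for P5 against P1, Itpr2, an IP3 receptor of calcium stores, which was 2.36-fold higher (1.24). Gnaq, the Gq alpha subunit, stood at 12.04, 12.01, 11.50 and 11.80 over the 4 arrays. The list's median difference was 0.19 at P1 against E17.5 and 0.20 at P5 against P1, beside -0.06 and 0.05 over all kept genes.

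In the Gi/o cascade, used by groups II and III, 21 of 22 genes were kept. At P1 against E17.5, 1 was at least 2-fold higher, Adcy1 (1.05), and none lower; Adcy8, the other calmodulin-stimulated cyclase, differed by 0.76, from an E17.5 level of 8.17 that lay under 8.41. For P5 against P1, 3 lay past 2-fold on the higher side (8.96% of all kept genes) and 1 on the lower (3.94%). Of the 3, Kcnj9 (1.18, inexact in size) reached 8.41 on the array labelled P5 alone. It was kept through the value counted here and is named to complete the count. Adcy8 (1.81) and the cyclase gene Adcy2 (1.23, inexact because its P1 level of 8.08 lay under 8.41) led on the higher side, and Gng2, a G protein gamma subunit, was lowest (-1.60), followed by Adcy1 (-0.62). Adcy1 thus had its lower postnatal value on the array where Adcy8 was highest, at 10.74 against 8.93 at P1. For P14 against P1, 1 of 21 was at least 2-fold higher, Adcy8 (1.16). The list's medians were 0.08, -0.08 and 0.11 in these 3 comparisons, beside -0.06, 0.05 and -0.01 over all kept genes.

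Of 14 scaffolds and binding partners, all kept, none was 2-fold apart at P1 against E17.5, where Shank2 (0.69) and Homer2 (0.67), scaffolds that link mGlu5 to the postsynaptic density, had the largest positive differences. For P5 against P1, 1 passed 2-fold on each side. Ncdn, which encodes norbin, an mGlu5 binding protein, was 2.57-fold higher (1.36) and Shank2 was lower (-1.36). Shank1 differed by -0.61 there, and Shank2 was back at 10.57 on the array labelled P14, against 9.27 on the array labelled P5. Elfn1, a postsynaptic membrane protein that binds mGlu7 across the synapse, stood at 7.67, 8.05, 8.79 and 8.59, with its first 2 values under 8.41. The medians were 0.21 and -0.15, beside -0.06 and 0.05 over all kept genes.

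Among 12 genes of receptor desensitisation and RGS proteins, which speed the shut-off of G proteins, 10 were kept. Rgs4 stood at 7.81, 9.34, 11.04 and 10.18 at E17.5, P1, P5 and P14 and was the 1 gene at least 2-fold higher both at P1 against E17.5 (1.53, inexact because the E17.5 level lay under 8.41) and at P5 against P1 (1.70). No gene was 2-fold lower in either; Rgs12 had the largest negative difference in both (-0.49 and -0.92). The medians were 0.03 and -0.01.

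Glutamate uptake and recycling genes, which set how much transmitter reaches receptors outside the synapse, had 8 of 9 listed genes kept. At P1 against E17.5, 1 was at least 2-fold higher, the cystine-glutamate exchanger gene Slc7a11 (1.16). For P5 against P1, 1 was as well, Slc1a2, the main astrocyte glutamate transporter (1.98, 3.94-fold), while Slc7a11 differed by 0.99 and Slc1a6 by -0.45. The P5 level of Slc1a6 (8.29) lay under 8.41, so its difference is inexact in size. The medians were 0.32 and 0.59, beside -0.06 and 0.05 over all kept genes. The astrocyte markers given above moved with this list, and their part in it was not tested.

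Other class C receptors, the structural relatives of the metabotropic receptors, had 6 of 10 listed genes kept. For P5 against P1, 3 lay past 2-fold on the higher side (8.96% of all kept genes) and none on the lower (3.94%). They were Gprc5b, an orphan receptor (11.86 at P5 and 8.83 at P1), the calcium-sensing receptor gene Casr (10.16 at P5 and 7.25 at P1) and Gpr158 (11.81 at P5 and 9.24 at P1), named to complete the count. Casr reached 8.41 on the array labelled P5 alone, so it was kept through the value counted here. Its difference is inexact in size, and the count and the median of the list include it. The GABA-B receptor genes Gabbr1 and Gabbr2 differed by 0.10 and 0.20. At P1 against E17.5 none of the 6 was 2-fold apart, and Gabbr2 (0.42) and Gprc5c (-0.42) lay furthest from 0. The P1 level of Gprc5c (8.30) lay under 8.41, so its difference is inexact in size. The medians were -0.10 and 1.39, beside -0.06 and 0.05 over all kept genes.

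**Figure D5:**
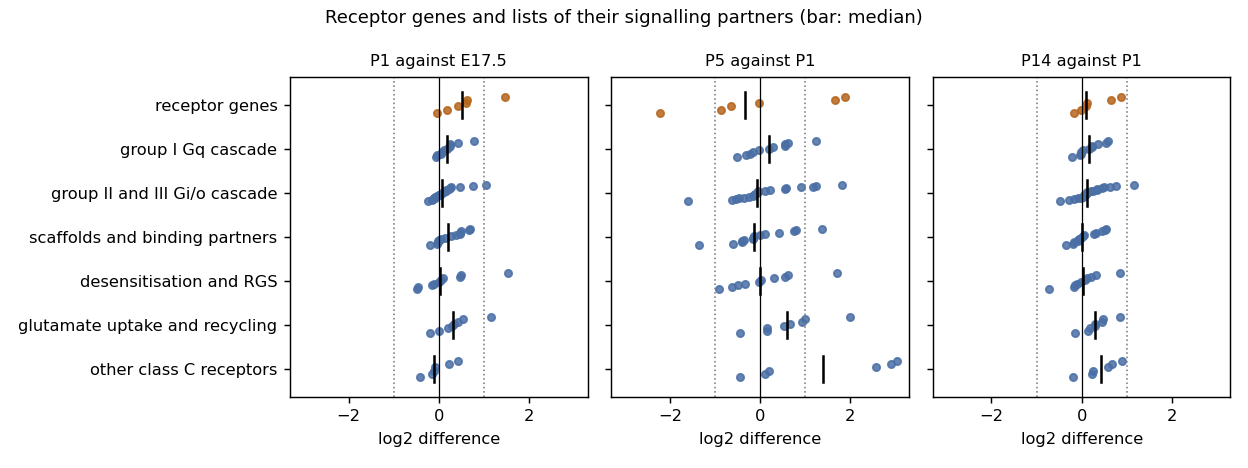
Difference on the log2 scale (horizontal axis, later minus earlier label) of the 6 receptor genes and of the kept genes of 6 partner lists (rows) in 3 comparisons of single arrays; each point is a gene, black bars are medians and dotted lines mark 2-fold. The points spread most at P5 against P1, where the receptor genes run from -2.23 to 1.89.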

How the data were processed

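Gene expression was measured in 4 pools of mouse pontine nucleus RNA, 1 array for each age. The deposited values are normalised log2 signals for 35556 probe sets, made with Affymetrix Expression Console per the submitters' processing notes; the software version and how probes were summarised and normalised are details not given in the sources used here. That they are log2 values follows from their range of 1.84 to 14.72 with array medians between 7.89 and 7.94. The number of arrays limits the precision, and no signal over background was given.

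Gene symbols came from the platform's gene table, in which 21789 probe sets carried 1 symbol, 1621 several and 12146 were not named. Entrez identifiers of 21698 single-symbol probe sets were found in the RefSeq gene table for GRCm38.p6, and no symbol changed. Each gene was represented by the single-symbol probe set whose mean over all arrays was highest, and no multi-symbol probe set listed a receptor gene of the set. Genes were kept at a highest level of at least 8.41, and differences were counted at 1 on the log2 scale or more. The SD of a difference from 1 probe set was pooled within genes with 2 or more kept probe sets. Counting and profile matching were tested on simulated data.

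The receptors, the partner and marker lists and the comparisons were chosen with earlier results of these data known. Genes named were all 6 receptors, and up to 2 genes on each side of each partner list in a comparison described. The 3 genes nearest in profile to each receptor with a 2-fold span were named too. Gpr158, Kcnj9, the markers Slc17a7 and Barhl1, and values of these genes in further comparisons were chosen after they were seen. The profile search left out olfactory and vomeronasal receptor genes, small RNA genes and predicted or unnamed ones. Marker lists were summed on the linear scale. Alternatives were no level filter, the mean of a gene's probe sets, quantile normalisation, median centring, a floor at each array's lower quartile, a 1.5-fold size, Pearson's r for the profile search and leaving out the array labelled P5 or P14. Python 3.11.15, numpy 2.4.6, pandas 2.3.3 and matplotlib 3.10.9 were used.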

Additional observations from a re-analysis of the deposited data

How the results depend on the processing

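With 1 array for each age, no result here could be tested. The SD used as a yardstick holds only the disagreement between probe sets of the same gene. Quantile normalisation, median centring, the floor at the lower quartile and the mean over probe sets were applied to every receptor difference, giving 144 recomputed values; each moved by less than 1 SD of a probe set difference, by at most 0.08 on the log2 scale, and none of at least 2-fold changed sign. The mean over probe sets could change nothing for the receptors, since each has 1. Nor could the floor, since the lower quartiles ran from 6.42 to 6.53 and the lowest receptor level was 7.90. Dropping the level filter could not change a receptor count either, since all 6 passed it. Only quantile normalisation and median centring could thus move a receptor value. Median centring left the counts of receptors at least 2-fold apart as reported. Quantile normalisation did too, except that it gave 3 in place of 2 for P14 against P5, with Grm7 added. Median centring moved the median difference of all kept genes for P5 against P1 to 0.11, against 0.05 as deposited. At 1.5-fold in place of 2-fold, the counts of 6 receptors became 3 for P1 against E17.5 (5.92% of kept genes), 5 for P5 against P1 (30.5%), 2 for P14 against P1 (5.84%), 5 for P14 against P5 (19.6%), 4 for P5 against E17.5 (35.3%) and 3 for P14 against E17.5 (18.2%). The array labelled P5 decided most spans: without it they were 0.53 for Grm5, 0.62 for Grm3, 0.88 for Grm4 and 1.27 for Grm8, and 2 receptors kept a 2-fold span, against 4 with it. Leaving out the array labelled P14 left 4. The genes nearest in profile to Grm3, Grm4 and Grm8 changed when Pearson's r was used among genes with a 2-fold span, with 0 of 3 shared. No paired analysis was possible because each age has 1 array and the labels give no replicate numbers.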
